A study of Mus musculus with 2 samples.

Results

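The Mir322 cluster is a group of 7 microRNA genes on the minus strand of mouse chromosome X. It was described here in the intestine of mouse embryos at embryonic day 16.5. Its members are the rows of the count tables whose gene is annotated as a miRNA on that strand between positions 53047997 and 53054349 of mm10: Mir322, Mir503, Mir351, Mir542, Mir450-2, Mir450-1 and Mir450b. These are 7 of 1973 gene rows, chosen by position and not by their counts. The tissue was whole intestine of B6NCrl embryos, with males and females pooled, and each of 2 biological replicates gave 1 library of RNA under 30 nucleotides. The pool of replicate 2 held 41 embryos, and the labels give no number for replicate 1. There is 1 group and no treated, mutant or control group, so the comparisons are among the genes and between the 2 libraries.

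A microRNA is cut from a hairpin transcript as a strand of about the length of the reads counted here, and it pairs with messenger RNAs chiefly through its seed, bases 2 to 8 from the 5′ end. The cluster is known for genes that slow the cell cycle: miR-322, the mouse counterpart of a human miRNA that carries another number, and miR-503 repress the phosphatase gene Cdc25a and cyclin genes, and both rise when muscle precursors leave the cycle. miR-351 has the seed of the miR-125 family, and miR-542 is known for repressing Birc5, which encodes survivin. The counts below are numbers of reads only, and growth arrest was not measured in these libraries.

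All 7 members had mature sequences in the RefSeq table (GRCm38.p6, the same assembly as mm10), with 13 different sequences and 12 different seeds among the 14 mature arms, and 6 of the 7 matched a hairpin there. Mature sequences are written 5′ to 3′ with the seed in capitals. The first set shows what joins miR-322 and miR-503 to the miR-15 and miR-16 family.
miR-322-5p (Mir322): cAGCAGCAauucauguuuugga
miR-503-5p (Mir503): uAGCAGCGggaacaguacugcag
miR-16-5p (Mir16-1 and Mir16-2): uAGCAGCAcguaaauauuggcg
miR-15a-5p (Mir15a): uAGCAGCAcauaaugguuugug
miR-195a-5p (Mir195a): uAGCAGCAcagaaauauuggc
miR-497a-5p (Mir497): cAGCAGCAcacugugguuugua
Counted from the 5′ end, miR-322-5p and miR-16-5p have the same bases 2 to 8, whereas miR-503-5p differs from both inside the seed by A8G alone. With the seed taken as bases 2 to 7 all 6 sequences match. Over their whole length, seed included and with no gaps allowed, miR-322-5p and miR-503-5p are equal at 11 of 22 positions.

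miR-351-5p shares its seed with the miR-125 miRNAs.
miR-351-5p (Mir351): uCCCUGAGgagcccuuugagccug
miR-125a-5p (Mir125a): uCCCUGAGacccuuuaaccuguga
miR-125b-5p (Mir125b-1 and Mir125b-2): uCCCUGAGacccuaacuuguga
The first 8 bases of miR-351-5p and miR-125a-5p are equal, and 14 of the 24 positions differ, all after the seed. Positions were compared with no gaps allowed, so stretches that both sequences hold at shifted positions count as differences.

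The 3 Mir450 genes lie at the far end of the cluster and share stretches of sequence, which bears on how their reads can be counted.
miR-450a-5p (Mir450-1 and Mir450-2): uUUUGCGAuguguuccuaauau
miR-450b-5p (Mir450b): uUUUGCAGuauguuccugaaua
miR-450a-1-3p (Mir450-1): aUUGGGAAcauuuugcauaaau
miR-450a-2-3p (Mir450-2): aUUGGGGAugcuuugcauucau
miR-450b-3p (Mir450b): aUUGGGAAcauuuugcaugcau
The 5p arm of Mir450-1 and Mir450-2 is the same sequence in both hairpins. The 5p arm of Mir450b differs from it inside the seed by G7A and A8G. The 3p arms of Mir450-1 and Mir450b share a seed and differ at A19G and A20C, the first 18 bases being equal. No other mature arm of the cluster has an exact copy in another hairpin of the table. The remaining member, Mir542, shares the seed of its 5p arm with Mir6966 (4 and 0 counts in replicates 1 and 2) and that of its 3p arm with no other gene of the table. Its 3p arm is shown because it is the one known for binding the Birc5 message.
miR-542-3p (Mir542): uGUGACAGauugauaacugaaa

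The cluster spans 6353 bases, and with the gene on the minus strand Mir322 comes first in the direction of transcription. Mir503 follows after 200 bases and Mir351 after a further 630 bases. A gap of 3767 bases separates Mir351 from Mir542, and Mir450-2 follows 1035 bases beyond Mir542. Gaps of 54 and 75 bases part the 3 Mir450 genes from each other. GENCODE M21 places 0 of the 7 hairpins inside another gene: the long non-coding RNA C430049B03Rik (X, 53055046 to 53057190) lies upstream of Mir322 and the lincRNA Gm28730 (X, 53051194 to 53053159) lies between Mir351 and Mir542. In RefSeq, C430049B03Rik is longer (X, 53053112 to 53057190) and holds 3 members, Mir322, Mir503 and Mir351.

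Levels are given as CPM, the reads on the strand of a gene per 1000000 such reads in the library (4261976 in replicate 1 and 5680764 in replicate 2), with the mean ± SD of 2 libraries. A miRNA read covers a whole mature strand, so counts were not divided by the length of the row, which runs from 69 to 99 bases. A row counts both arms of its hairpin together. How evenly different miRNAs were turned into reads was not measured, so comparisons among genes are comparisons of counts. Reads that map to several loci, 26.2% and 25.7% of the reads of replicates 1 and 2, are in no row. The 95% intervals (exact, Clopper-Pearson) are computed from the counts of 1 library, so they cover counting error only. Copies made by PCR could not be told apart, so the intervals may be too narrow even for that. The lowest level that 3 counts allow was 0.704 CPM in replicate 1 and 0.528 CPM in replicate 2. The labelled tissue was checked against marker genes: all 10 markers of epithelium and all 6 of smooth muscle and mesenchyme were counted 10 times or more in each library. So were the 1 marker of endothelium, the 1 of liver and the 3 of blood with a row. Passing this minimum therefore does not tell intestine from other tissues. Of 4 skeletal muscle markers with a row, Mir206 had 255 and 353 counts in replicates 1 and 2 and Mir1a-1 had 3 and 0, while Mir133a-1 and Mir133a-2, which carry the same miRNA at 2 loci, had 0. In whole tissue, fewer cells of a type and less RNA per cell cannot be told apart.

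The cluster held 2.10% ± 0.0468 of all miRNA gene counts (n = 2), from 90818 counts in replicate 1 and 117290 in replicate 2. The share was 2.13% (interval 2.12% to 2.14%) in replicate 1 and 2.06% (2.05% to 2.08%) in replicate 2. Mir322 carried most of it, Mir351 came next, and the other 5 genes together made up a small remainder. All 7 members had at least 10 counts in both libraries, which 347 of 1973 rows reached. No read fell on the opposite strand of any member in either library.

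Mir322 (X, 53054255 to 53054349), the first hairpin of the cluster and the carrier of the miR-16 seed, stood at 16147 CPM in replicate 1 and 16255 CPM in replicate 2, from 68819 and 92341 counts. Its 2 values nearly coincide, with a mean of 16201 ± 76.2 CPM. Mir322 made up 75.8% of the cluster counts in replicate 1 and 78.7% in replicate 2. By mean level it ranked 19 among all rows. The genes next above it were Mir375, known from endocrine cells (16685 ± 1355 CPM), and Mir30e (16264 ± 1584 CPM), and the genes next below were Mirlet7d (14702 ± 463 CPM) and Mir23a (11490 ± 619 CPM). The values of Mir375 and Mir30e lay on both sides of those of Mir322, so these 3 levels do not differ beyond their spread, while both values of Mirlet7d and of Mir23a lay below.

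Mir503 (X, 53053984 to 53054054), whose hairpin is the closest to that of Mir322 and whose miRNA shares bases 2 to 7 with it, was far less abundant. It stood at 523 CPM in replicate 1 and 496 CPM in replicate 2, from 2229 and 2818 counts. Mir322 therefore had 30.9 times the counts of Mir503 in replicate 1 and 32.8 times in replicate 2, a ratio of 31.8 ± 1.34. Neighbouring hairpins with related miRNAs thus stood far apart in counts, and the 2 libraries gave nearly the same ratio. A bias that both libraries share would leave that ratio equally alike.

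Mir351 (X, 53053255 to 53053353), the member with the miR-125 seed, was the second most abundant gene of the cluster. It stood at 3866 CPM in replicate 1 and 3098 CPM in replicate 2, from 16475 and 17601 counts, with a mean of 3482 ± 543 CPM and rank 50. Replicate 1 was the higher. The share of the cluster counts held by Mir351 was 18.1% (interval 17.9% to 18.4%) in replicate 1 and 15.0% (14.8% to 15.2%) in replicate 2, so these intervals did not overlap. Without Mir351 the cluster held 1.74% and 1.75% of the counts in replicates 1 and 2, against 2.13% and 2.06% with it. The Mir322 counts were 4.18 times those of Mir351 in replicate 1 and 5.25 times in replicate 2.

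Mir542 (X, 53049403 to 53049487), the member known for repressing survivin, stood at 596 CPM in replicate 1 and 605 CPM in replicate 2. That is 601 ± 6.32 CPM, from 2542 and 3439 counts. It lay above Mir503 in both libraries, by 1.14 times in replicate 1 and 1.22 times in replicate 2. This was the smallest step in the order of the 7 genes, and the intervals of the pair did not overlap in either library.

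The Mir450 genes were the lowest members and together held 0.829% of the cluster counts in replicate 1 and 0.930% in replicate 2. Mir450b (X, 53047997 to 53048078) stood at 143 and 151 CPM in replicates 1 and 2, from 611 and 859 counts. Mir450-1 (X, 53048154 to 53048244) stood at 22.8 and 27.6 CPM, from 97 and 157 counts. Mir450-2 (X, 53048299 to 53048367) was the lowest, at 10.6 and 13.2 CPM, from 45 and 75 counts. The levels of the 3 genes did not overlap, and Mir450b had 5.89 ± 0.585 times the counts of Mir450-1, which had 2.12 ± 0.0440 times those of Mir450-2.

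The order among the Mir450 rows is an order of reads that could be placed at 1 locus. The hairpins of Mir450-1 and Mir450-2 share an unbroken run of 25 bases that contains the whole of miR-450a-5p, so a read of that miRNA fits both loci. Capitals mark the annotated mature arms in these hairpins.
Mir450-1 hairpin (chrX:53048154-53048244, minus strand): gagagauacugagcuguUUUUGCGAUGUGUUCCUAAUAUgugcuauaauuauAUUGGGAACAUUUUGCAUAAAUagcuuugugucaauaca
Mir450-2 hairpin (chrX:53048299-53048367, minus strand): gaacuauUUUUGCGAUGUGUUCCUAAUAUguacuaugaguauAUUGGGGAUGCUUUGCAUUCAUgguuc
Mir450b hairpin (chrX:53047997-53048078, minus strand): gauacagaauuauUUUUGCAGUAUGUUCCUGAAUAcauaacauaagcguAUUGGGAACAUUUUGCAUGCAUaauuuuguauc
Mir450b shares a run of 19 bases with Mir450-1, in the 3p arm, and 9 with Mir450-2, and its 5p arm has no run over 9 bases in any other hairpin of the table. The part that reads at several loci play in the low counts of Mir450-1 and Mir450-2 was not tested.

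**Figure D1:**
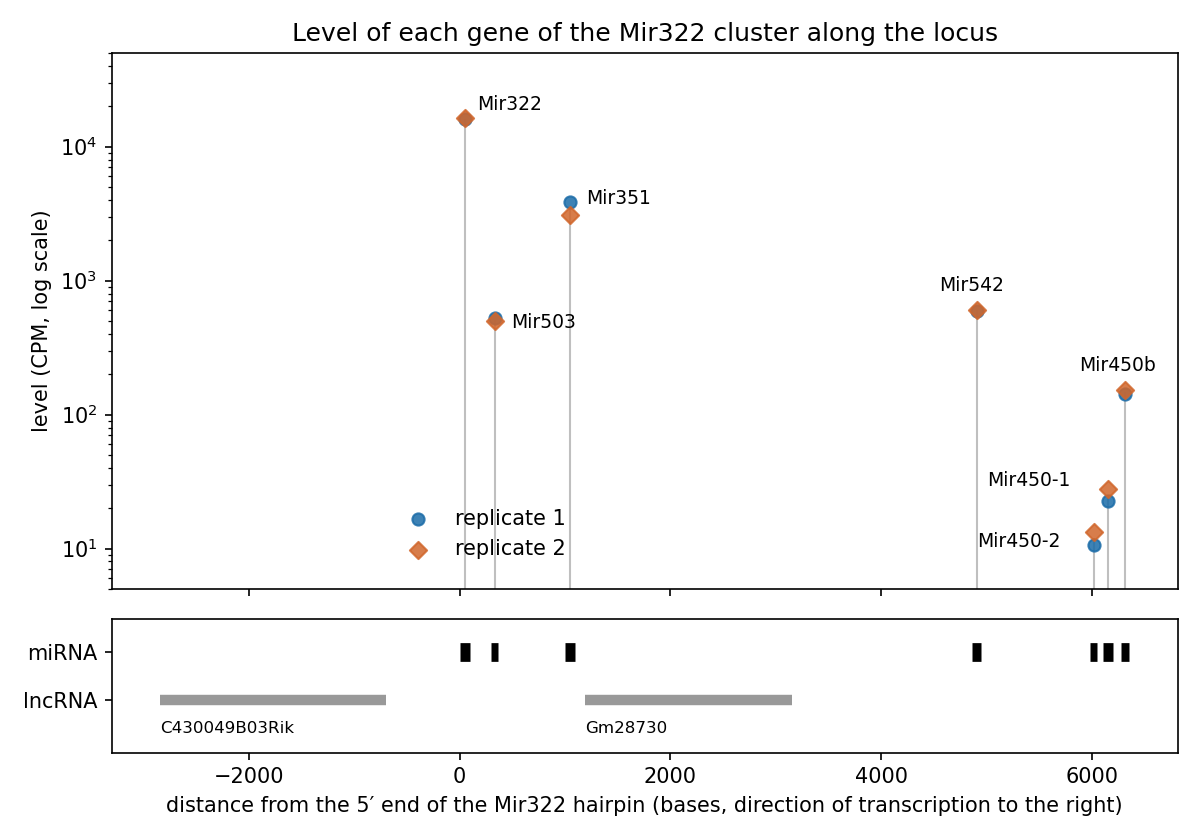
Level of the 7 cluster genes in CPM (log axis) against distance in bases from the 5′ end of the Mir322 hairpin, with 1 point per library (circles replicate 1, diamonds replicate 2) and grey stems reaching the mean. The lower panel shows the hairpins and the long non-coding RNAs of GENCODE. Mir322 stands at 16201 CPM, Mir503 only 200 bases further on at 510 CPM, and the level does not follow the order along the locus.

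The plot of levels along the locus shows that the genes fall into no simple gradient. From the first to the last in the direction of transcription the ranks by level within the cluster were 1, 4, 2, 3, 7, 6 and 5. The first 3 genes held 96.3% ± 0.166 of the cluster counts. In each of the 6 pairs of neighbours in the order of levels, the higher gene was above the lower in both libraries, the values did not overlap and the intervals were apart in both libraries. From Mir322 to Mir450-2 the counts fell 1529-fold in replicate 1 and 1231-fold in replicate 2. Mir450-1 and Mir450-2 lose reads of miR-450a-5p, which fit both loci, whereas no arm of Mir322 has an exact copy. These folds and the ranks of Mir450-1 and Mir450-2 are therefore those of placed reads.

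The cluster was set beside the other groups of miRNA genes that lie on 1 strand less than 10 kb apart. Of 104 such groups in the genome, 56 held a gene with at least 20 counts summed over the libraries, and the Mir322 cluster ranked 9 among these by its share of the counts. Among 14 groups with at least 3 genes at that minimum, the share taken by the most abundant gene was the second highest for the Mir322 cluster, after the group of Mir23a (96.8%) and ahead of that of Mir429 (68.1%). The fold between its highest and lowest such gene ranked 3. Counts of every group leave out reads that fit several loci, so these shares, folds and ranks are those of placed reads. The part that such reads play in the ranks was not tested. These ranks are a description of 1 tissue, without a test.

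**Figure D2:**
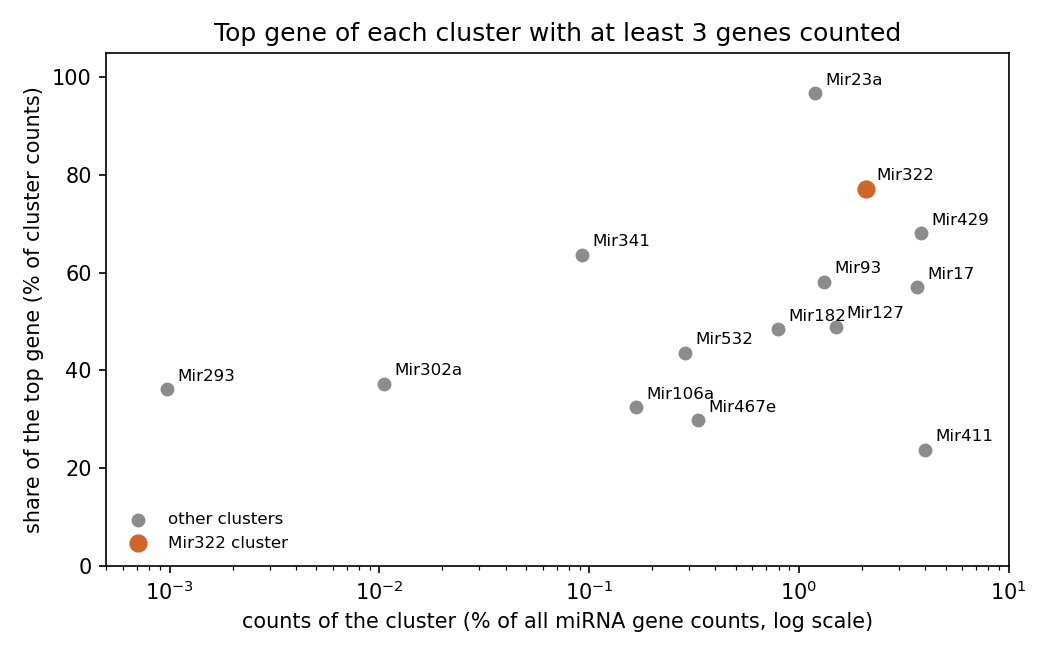
Share of cluster counts held by the most abundant gene (percent) against the share of all miRNA gene counts held by the cluster (percent, log axis), for the 14 clusters with at least 3 genes at 20 counts, each named by its top gene, from the mean of 2 libraries. The Mir322 cluster (orange) lies in the upper right, below the group of Mir23a and above that of Mir429. Both shares are of placed reads, since reads that fit several loci are in no row.

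On chromosome X no other row reached the level of Mir322. The chromosome has 120 rows, of which 37 had at least 10 counts in both libraries. The cluster held 42.1% of the counts of that chromosome in replicate 1 and 42.0% in replicate 2, and Mir322 alone 31.9% and 33.1%. The next genes were Mir98 (9672 ± 570 CPM), Mir652 (6853 ± 737 CPM) and then Mir351. Reads that fit several loci are in no row, so these too are levels and shares of placed reads by row.

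Mir322 was also the most abundant row among those that share its seed. RefSeq has 11 genes with a mature miRNA whose bases 2 to 8 read AGCAGCA. Of these 10 have a row and 6 had counts: Mir322, Mir15a, Mir16-1, Mir15b, Mir195a and Mir16-2. Mir195b, Mir6342, Mir6353 and Mir6419 had 0 counts in both libraries, and Mir497 has no row here. Together the rows of the group held 2.13% ± 0.0204 of all counts. Mir322 made up 76.5% of the group in replicate 1 (interval 76.2% to 76.8%) and 75.9% in replicate 2 (75.7% to 76.2%). Reads that fit both Mir16-1 and Mir16-2 are in no row, and each row also counts the other arm of its hairpin. The shares are therefore shares of placed reads by row, and the intervals cover neither limit. The share of miR-322 among miRNAs with this seed was not measured.

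The other genes of this group are the classic repressors of cyclins and Bcl2. Mir15a followed Mir322 at 2420 and 2725 CPM in replicates 1 and 2, so that Mir322 had 6.67 and 5.96 times its counts. Mir16-1, the partner of Mir15a in 1 cluster on chromosome 14, stood at 1124 and 1028 CPM, and Mir15b on chromosome 3 at 771 and 736 CPM. Mir195a on chromosome 11 stood at 401 and 420 CPM, and Mir16-2, next to Mir15b, at 251 and 239 CPM. None of these values reached those of Mir322, and Mir503, which joins the group when the seed is taken as bases 2 to 7, fell between Mir15b and Mir195a. The values of Mir16-1 and Mir16-2 leave out reads of miR-16-5p that fit both loci, so the order of miR-322 and miR-16 as miRNAs cannot be read from these rows.

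The same comparison for Mir351 gave a closer result. The group with the seed CCCUGAG has 6 genes in RefSeq, all with a row, and Mir351, Mir125a, Mir125b-1 and Mir125b-2 had counts, while Mir6394 and Mir6367 had 0. The group held 0.799% of all counts in replicate 1 and 0.599% in replicate 2. Mir351 made up 48.4% of the group in replicate 1 (interval 47.9% to 48.9%) and 51.7% in replicate 2 (51.2% to 52.2%). Mir125a stood at 3435 and 2299 CPM in replicates 1 and 2, and Mir351 was 1.13 and 1.35 times as high. The level of Mir351 in replicate 2 (3098 CPM) lay below that of Mir125a in replicate 1, so these 2 genes overlap across libraries although Mir351 was the higher in each. Mir125b-1 (396 and 323 CPM) and Mir125b-2 (293 and 274 CPM) carry the same mature miRNA at 2 loci and lose reads that fit both. The shares of Mir351 in the group are therefore also shares of placed reads by row, with both arms counted.

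**Figure D3:**
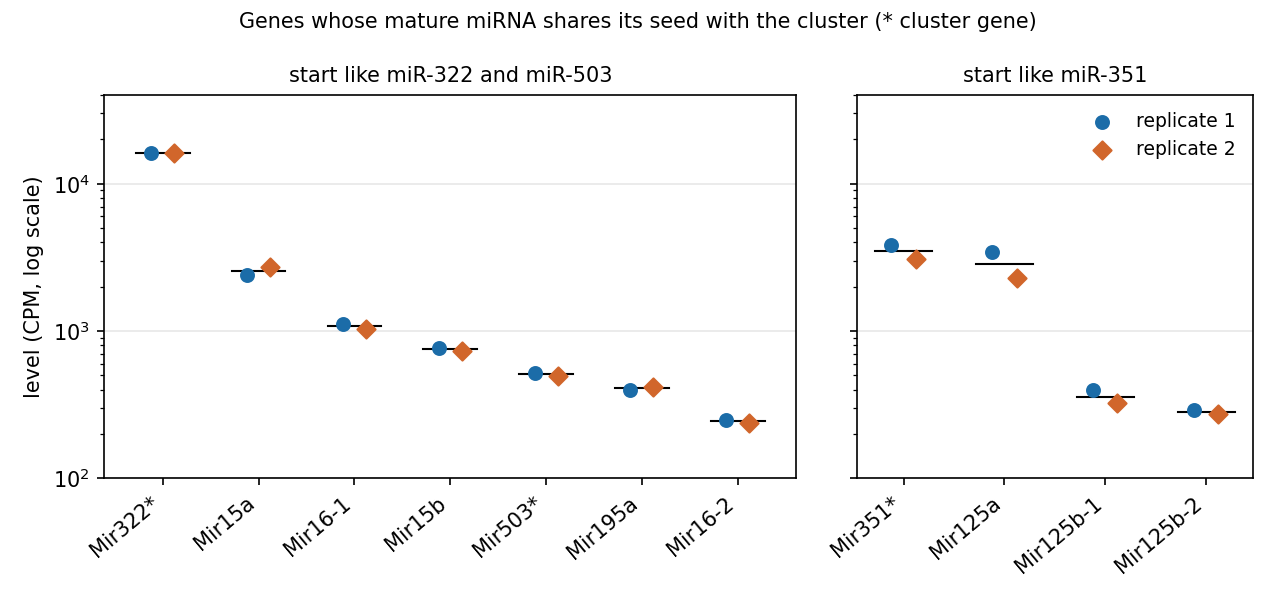
Level in CPM (log axis) of the counted genes whose mature miRNA begins with the seed of miR-322 or miR-503 (left) and of miR-351 (right), with 1 point per library and a black line at the mean, cluster genes marked with a star. Mir322 lies above every other gene on the left, whereas Mir351 and Mir125a overlap.

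The libraries were compared gene by gene with an exact two-sided binomial test on counts, scaled by TMM, with Benjamini-Hochberg adjustment over the 364 genes that had at least 20 counts summed. The test sets 2 libraries against each other, not conditions, and covers counting error only. It called 51.9% of all genes tested, 24.5% as higher in replicate 2 and 27.5% as higher in replicate 1. All 7 members were tested, and it called 4, with Mir322, Mir542 and Mir450b higher in replicate 2 and Mir351 higher in replicate 1. Scaling by total counts lowered every log2 ratio of replicate 2 to replicate 1 by 0.13. It called 57.7% of all genes (12.6% higher in replicate 2 and 45.1% higher in replicate 1) and, of the members, Mir351 alone. With DESeq2 size factors 51.4% of all genes were called (26.6% higher in replicate 2 and 24.7% higher in replicate 1), and 5 members, Mir450-1 being added to the 4. How many of the 7 members were called thus moved with the scaling, from 1 to 5, and nothing particular to the cluster is read from these counts. No member passed and also differed by 1.5-fold or more, which 11.0% of all genes did, 2.47% as higher in replicate 2 and 8.52% as higher in replicate 1.

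Mir351 was called higher in replicate 1 under all 3 scalings. The log2 ratio of replicate 2 to replicate 1 was -0.19 with a counting error of 0.016 under TMM (adjusted p of the exact test 8.00e-33), and -0.32 with total counts. Under TMM the 6 other members had ratios above 0, from 0.053 for Mir503 to 0.45 for Mir450-2, while with total counts Mir503 was also below 0 (-0.076). Mir322 had a log2 ratio of 0.14 under TMM and 0.0096 with total counts, at which it did not pass (exact test, adjusted p = 0.252). Mir503 passed under neither of these scalings. The size of the Mir351 difference was ordinary for these libraries: 55.2% of the genes tested had an absolute log2 ratio at least as large. The median log2 ratio was 0.15 over the 7 members and -0.018 over all genes tested under TMM, and 0.021 and -0.15 with total counts.

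Mir450-1 (0.41, counting error 0.19) and Mir450-2 (0.45, counting error 0.27) had the largest ratios of the cluster and the fewest counts, and neither passed, with adjusted p of the exact test of 0.0520 and 0.159. Among 11 listed genes of the miR-16 and miR-125 families outside the cluster, counting Mir497b, which lies opposite Mir497, 8 had enough counts to be tested, and 2 were higher in replicate 2 (Mir15a and Mir195a) and 2 higher in replicate 1. These last were Mir125a, at a log2 ratio of -0.45, and Mir125b-1, at -0.16. With total counts 1 was higher in replicate 2 and 3 higher in replicate 1. Over all genes tested, 24.5% were called higher in replicate 2 and 27.5% in replicate 1 under TMM, and 12.6% and 45.1% with total counts. Nothing particular to these families is read from the calls.

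Marker genes of several cell types also differed between the libraries. For comparison, 24.5% of all genes tested were called higher in replicate 2 and 27.5% in replicate 1 under TMM. With total counts these shares were 12.6% and 45.1%. The 10 epithelial markers summed to 10.8% of the counts in replicate 1 and 12.3% in replicate 2, with 9 called higher in replicate 2 and Mir375 higher in replicate 1 under TMM, and 7 and 2 with total counts. The 6 smooth muscle and mesenchymal markers summed to 18.6% and 17.8%, with 4 called higher in replicate 1 and 1 in replicate 2 under TMM, and 5 and 0 with total counts. That sum is mostly Mir143, whose group of neighbouring miRNA genes held 17.6% of all counts by mean level. Mir143 made up 98.5% of that group. The sum thus follows 1 gene, whereas the calls count each marker equally. The liver marker Mir122 stood at 0.0994% and 0.0448%. The part of these differences in the ratio of Mir351 was not tested.

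**Figure D4:**
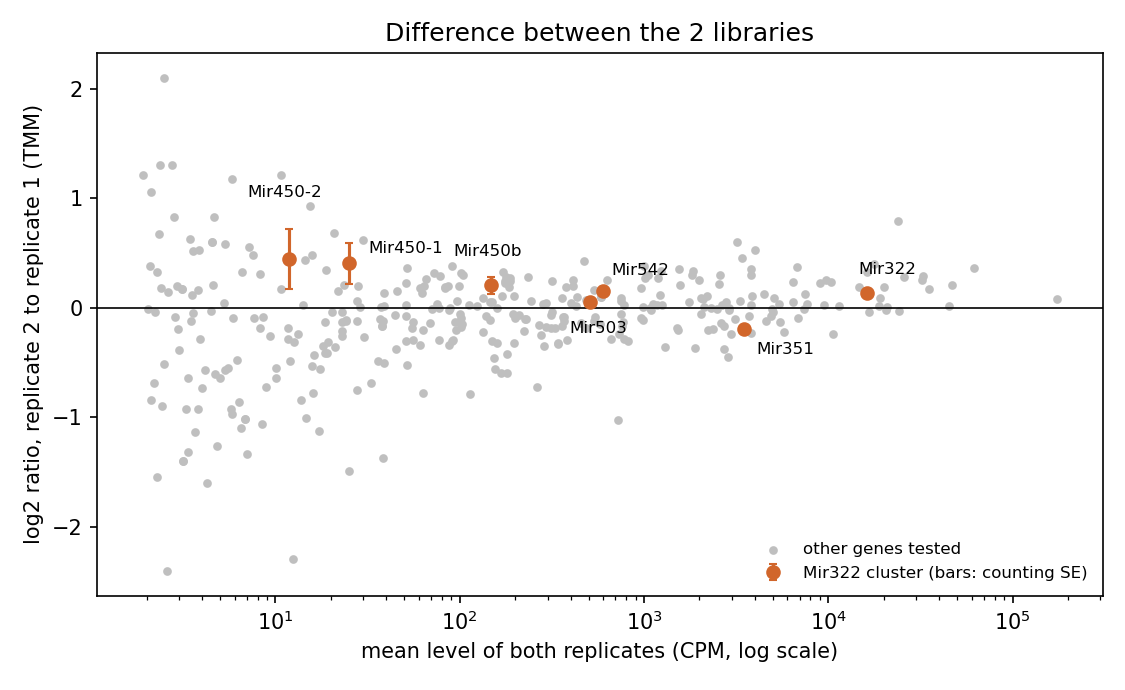
Log2 ratio of replicate 2 to replicate 1 after TMM scaling against mean level in CPM (log axis) for the 364 genes tested, with the 7 cluster genes in orange and bars of 1 counting standard error. The cluster genes lie within the cloud of the other genes, and Mir351 is the only one below 0 (with total counts, not plotted, Mir503 is also below 0).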

How the data were processed

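Per the readme of each library, the authors deposited read counts per miRNA gene on mm10 with GENCODE M4, not normalized and with no pooling of the libraries. As for the aligner and counter, they are not given in any source used here. A table has 3 count columns with no header. In all 1973 rows the last 2 add up to the first, which was read as both strands together, and the larger of the 2, with 96.2% and 96.3% of it, was read as the gene's own strand. The 4 leading rows that name no gene stayed out of totals: 19.5% and 17.2% of reads were unmapped, 26.2% and 25.7% mapped to several loci and 3.69% and 2.88% lay outside miRNA genes.

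Genes were located with GENCODE M21 on the same assembly (1894 of 1973 identifiers), and mature and hairpin sequences came from RefSeq (GRCm38.p6). Scaling used edgeR 4.0.16 (TMM) or DESeq2 1.42.0 size factors, tests used scipy 1.17.1, a prior of 0.5 counts and a threshold of 0.05, and folding used RNAfold 2.7.2. With 1 group, edgeR's quasi-likelihood test has no contrast to fit. The binomial test was also run on simulated counts with set changes and counting error only. That run does not cover other variation between libraries. The labels call both libraries biological replicates.

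All members are named, with every counted gene that shares their seed and the genes next to Mir322 in level. The cluster and the lists were chosen with earlier results of these data known, while the 7 rows within the cluster were set by position. Alternatives were unstranded counts, 2 other denominators, each library alone, other scalings, count minimums, a prior of 2 counts and a 1.5-fold minimum. Seeds of bases 2 to 7 and the opposite-strand reads at Mir497b were added after seeing the data. Of 6 marker lists, endothelium (Mir126a) held 3.08% and 3.36% of the counts of replicates 1 and 2, blood 0.140% and 0.121%, and skeletal muscle 0.00605% and 0.00621%.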

Additional observations from a re-analysis of the deposited data

Results flagged for a closer look

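Reads on the opposite strand of Mir497b stood at 457 ± 47.9 CPM (n = 2), from 1804 reads in replicate 1 and 2789 in replicate 2, against 2 and 1 on its own strand. They lie in a column that the levels above do not use and are far above the limit of 3 counts. In RefSeq the hairpin of Mir497, whose miR-497a-5p has the seed of miR-322, lies there on the plus strand (chromosome 11, 70234717 to 70234800), and Mir497b lies on the minus strand. Set beside the genes with that seed, 457 CPM is above Mir195a (411 CPM) and below Mir15b (754 CPM). With these reads counted, Mir322 made up 75.0% of the seed group in replicate 1 and 74.2% in replicate 2. These too are shares of reads placed at 1 locus, with both arms counted.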

How the results depend on the processing

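The ratios of members to Mir322 and the order of levels do not depend on the denominator, and all 7 members had 0 opposite-strand reads, so unstranded counts gave the same ratios. The ratio to Mir322 with each library alone ran from 0.0305 to 0.0324 for Mir503 and from 0.191 to 0.239 for Mir351. Shares moved with the denominator. The cluster held 2.02% of unstranded counts, 2.54% of counts without Mir143, the most abundant gene, and 1.30% of all mapped reads. The genes with the miR-322 seed held 2.05%, 2.57% and 1.31% in the same order, 2.18% with the seed as bases 2 to 7 and 2.17% with the opposite-strand reads at Mir497b. The genes with the miR-351 seed held 0.847% without Mir143 and 0.431% of all mapped reads. The members called between the libraries numbered 4 under TMM, where 51.9% of all genes tested were called. They numbered 1 with total counts (57.7% of all genes) and 0 at 1.5-fold or more (11.0%). With DESeq2 size factors (51.4%) they numbered 5, since Mir450-1 passed (adjusted p of the exact binomial test 0.0455). The Mir503 log2 ratio reversed to -0.076 with total counts, and Mir322, Mir542 and Mir450b no longer passed. Counting depth limits Mir450-2 (45 and 75 counts) and Mir450-1 most.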

Other observations

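The 6 hairpins of the cluster found in RefSeq differ in composition. Those of Mir322, Mir503 and Mir542 had a GC content of 51.6%, 54.9% and 51.8%, near the median of 51.7% over 1005 hairpins of the table. Those of Mir450-2, Mir450-1 and Mir450b had 36.2%, 33.0% and 30.5%. The folding energy that RNAfold predicted was -42.9 kcal/mol for Mir322, -41.0 for Mir450-1, -38.1 for Mir542, -37.6 for Mir503, -31.8 for Mir450b and -26.5 for Mir450-2, against a median of -32.0. Mir322 and Mir450-1 thus had nearly the same predicted energy per base (-0.452 and -0.451 kcal/mol) and levels of 16201 and 25.2 CPM. The Mir450-2 hairpin had the shortest length (69 bases), the weakest predicted energy of the 6 and the lowest level. The levels of Mir450-1 and Mir450-2 leave out reads that fit both loci. Per base the energy of Mir450-2 was -0.384 kcal/mol, near the -0.388 of Mir450b, which stood at 147 CPM. These are values for 6 hairpins, described without a test.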
